A study of Mus musculus with 2 samples.

Results

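The sites described here are stretches of open chromatin that lay inside protein-coding sequence and away from the starts of genes in a mouse erythroid cell system. Open chromatin was mapped as DNase I hypersensitivity, the ease with which the nuclease DNase I cuts DNA in nuclei. A site was taken when overlapping peaks formed 1 region with a peak in each of the 4 deposited lists, and the summit of its highest-ranking peak fell in a coding exon more than 2000 bp from every start of a protein-coding transcript. The rule was met by 650 of the 29568 regions of all 4 lists, among 188044 merged regions in the series. The sites were thus chosen by the positions and the signal ranks of the peaks, so their ranks are given as a description and were not tested.

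The treated state was G1E-ER4, a line derived from Gata1-null cells in which GATA1, the factor that drives red cell maturation, is restored in a form switched on by estradiol. They had been kept for 24 h in 10 nM beta-estradiol. The other state was its parent type G1E, erythroid progenitor cells that lack Gata1 and received no treatment. Both are male lines derived from embryonic stem cells of strain 129, per the labels. A state is a single GEO sample with a pair of peak lists, and nothing in the labels tells if that pair comes from different cultures. The line, the restored Gata1, the hormone and the sample all change at once between the states and cannot be told apart.

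Most DNase I hypersensitive sites mark promoters, enhancers and insulators, where bound proteins displace nucleosomes. A minority lie in coding exons, where the same bases both encode protein and can be read by transcription factors; some such exons act as enhancers. Coding sequence is also richer in G and C than its surroundings, and CTCF, the factor of insulators and chromatin loops, can bind within exons.

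The sequences below show the kinds of site that the results turn on. All are 200 bp of the mm9 reference genome around the summit, on the + strand, read 5′ to 3′.

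The first, at chr19:4169437-4169636, is the site of the highest mean rank. Its capitals mark coding bases of Carns1, the carnosine synthase gene, and the window also covers part of the intron beside them.

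Carns1: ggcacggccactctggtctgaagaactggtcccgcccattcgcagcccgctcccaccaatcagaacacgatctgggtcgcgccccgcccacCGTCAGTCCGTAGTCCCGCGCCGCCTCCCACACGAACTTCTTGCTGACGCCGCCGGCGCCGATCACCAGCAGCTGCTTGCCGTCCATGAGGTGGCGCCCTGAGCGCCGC

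The site at chr8:87163344-87163543 in the last coding exon of Cacna1a, the pore of a neuronal calcium channel, shows the CpG-dense kind, with every CpG in capitals.

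Cacna1a: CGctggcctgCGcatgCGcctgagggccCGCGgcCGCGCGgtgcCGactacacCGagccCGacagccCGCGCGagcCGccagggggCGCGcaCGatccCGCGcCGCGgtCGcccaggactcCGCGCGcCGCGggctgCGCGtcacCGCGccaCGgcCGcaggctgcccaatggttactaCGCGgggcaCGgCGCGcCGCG

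The site at chr9:18105363-18105562 in Chordc1, which encodes a zinc-binding HSP90 partner, had the lowest GC content of all sites, and its capitals mark the coding bases.

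Chordc1: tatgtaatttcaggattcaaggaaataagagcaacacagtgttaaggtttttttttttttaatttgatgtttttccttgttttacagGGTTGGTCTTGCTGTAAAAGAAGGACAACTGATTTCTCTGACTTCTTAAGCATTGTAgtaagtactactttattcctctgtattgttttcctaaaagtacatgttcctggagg

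In the window at chr6:124695563-124695762 in Atn1, a transcriptional corepressor gene, and at chr5:124450902-124451101 in Hip1r, a clathrin adaptor gene, the capitals mark the match to the CTCF core. The match lies outside the coding exon in Atn1, 70 bp from the summit, and runs across the exon edge in Hip1r. Hip1r was added after its values were seen, because its match spans the summit.

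Atn1: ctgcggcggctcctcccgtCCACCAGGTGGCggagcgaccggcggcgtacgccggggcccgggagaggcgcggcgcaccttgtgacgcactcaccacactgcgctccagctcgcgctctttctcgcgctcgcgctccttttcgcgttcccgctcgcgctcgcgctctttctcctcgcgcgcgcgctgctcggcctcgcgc
Hip1r: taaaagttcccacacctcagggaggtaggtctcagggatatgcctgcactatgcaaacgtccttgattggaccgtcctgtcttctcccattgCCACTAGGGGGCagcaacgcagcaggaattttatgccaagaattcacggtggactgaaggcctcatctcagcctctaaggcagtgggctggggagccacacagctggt

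The windows at chr7:25162204-25162403 in Kcnn4, the calcium-activated potassium channel of red cells, at chr12:25608986-25609185 in Mboat2, a phospholipid acyltransferase gene, and at chr6:87608831-87609030 in Aplf, a DNA repair gene, carry a GATA match, in capitals as its reverse complement. The match lies in the intron before the exon in Kcnn4 and Mboat2 and in the exon in Aplf. Mboat2 and Aplf had the largest losses of rank in G1E-ER4. Aplf was added after its values were seen.

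Kcnn4: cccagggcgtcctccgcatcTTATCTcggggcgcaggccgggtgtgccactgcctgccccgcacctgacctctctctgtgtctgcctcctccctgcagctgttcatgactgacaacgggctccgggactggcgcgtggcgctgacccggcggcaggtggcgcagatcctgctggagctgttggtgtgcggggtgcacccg
Mboat2: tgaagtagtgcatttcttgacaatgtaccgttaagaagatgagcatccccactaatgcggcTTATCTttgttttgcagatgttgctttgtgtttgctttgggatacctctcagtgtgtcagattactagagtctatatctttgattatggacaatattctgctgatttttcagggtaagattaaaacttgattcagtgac
Aplf: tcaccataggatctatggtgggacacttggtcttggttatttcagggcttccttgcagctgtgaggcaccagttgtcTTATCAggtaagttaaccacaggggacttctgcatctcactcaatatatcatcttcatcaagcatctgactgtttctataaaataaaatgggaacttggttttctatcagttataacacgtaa

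The last window, at chr9:109984330-109984529, covers the end of a short coding transcript of Mtap4, a microtubule-associated protein gene, with its coding bases in capitals. It had the largest gain of rank in G1E-ER4.

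Mtap4: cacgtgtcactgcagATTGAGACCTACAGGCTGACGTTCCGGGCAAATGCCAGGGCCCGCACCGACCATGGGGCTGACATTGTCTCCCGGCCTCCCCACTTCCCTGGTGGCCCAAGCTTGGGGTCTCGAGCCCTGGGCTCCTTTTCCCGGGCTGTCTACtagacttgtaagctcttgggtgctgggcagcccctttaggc

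Every list held 100000 peaks, so only the rank of a peak in its own list was used, as a percentile with 100 for the strongest. Read depth is unknown. The lists differed in how often they put a summit in such exons: 1911 and 5367 peaks of G1E-ER4 lists 1 and 2 did, against 4064 and 2554 peaks of G1E lists 1 and 2. G1E-ER4 list 1 also stood apart at the top, where promoters made up 57.3% of its strongest 10%, against 79.6% in G1E-ER4 list 2, 73.9% in G1E list 1 and 72.0% in G1E list 2. Promoter peaks at 7 of 8 erythroid marker genes were present in all 4 lists, and Hbb-b1 in 3. No lymphoid marker was in all lists, but Csf1r of 4 myeloid, Col1a1 and Pdgfra of 3 fibroblast and Syp of 4 liver and neural markers were.

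Coding exon sites were 2.20% of the regions of all 4 lists (95% Wilson interval 2.04 to 2.37%), beside 10641 promoter regions, 8914 regions between genes, 8744 intron regions and 619 regions in untranslated exons. Outside promoters they were 3.43% of regions of all 4 lists, and 3.52, 4.09 and 4.12% of regions found in 1, 2 and 3 lists. Coding sequence makes up 1.09% of the known bases more than 2000 bp from a start. The intervals cover the counting of regions only.

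The sites were GC rich for coding sequence. Their median GC content was 58.5% (quartiles 55 and 62.4%) in the 200 bp around the summit, against 49.5% around the midpoints of eligible coding exons. These were 157805 exons of the longest coding sequence of each gene, with a midpoint more than 2000 bp from every protein-coding start. Among those exons, 12.9% reached 58.5%. Intron regions of all 4 lists had a median of 52.0% and promoter regions 65.0%, so the exon sites lay between these classes.

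The CpG ratio, the number of CpG dinucleotides over that which the C and G content predicts, separated the sites less from other exons. Its median was 0.365 at the sites, 0.317 at all eligible coding exons, 0.210 at intron regions and 0.807 at promoters. A minority was CpG rich: 110 sites, or 16.9%, had at least 50% GC and a ratio of at least 0.6, against 4.97% of eligible exons, 2.86% of intron regions and 72.2% of promoters.

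**Figure D1:**
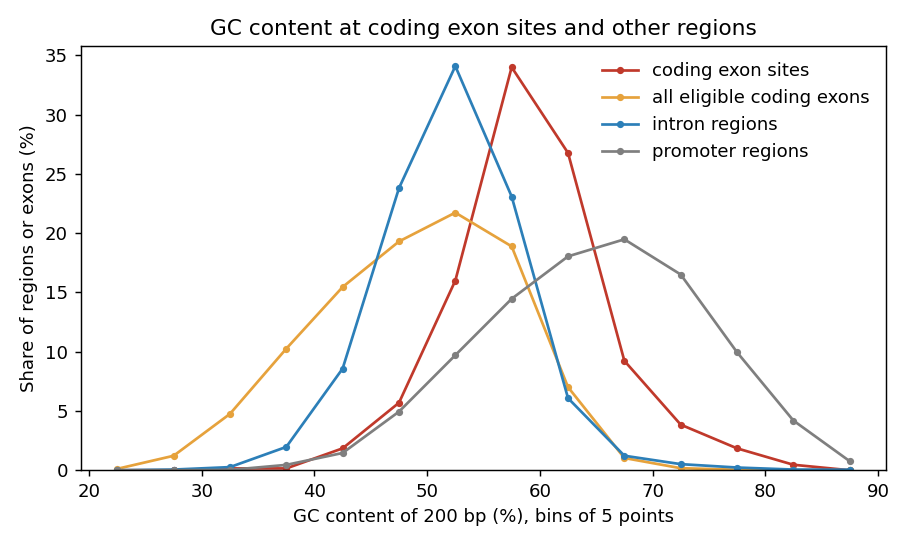
Share of regions or exons (y axis, %) by GC content of 200 bp (x axis, %, bins of 5 points) for the 650 coding exon sites, all eligible coding exons, intron regions and promoter regions of all 4 lists. The sites sit to the right of the exons at large, with medians of 58.5 and 49.5%, and to the left of promoters, with a median of 65.0%.

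CpG-rich sites were ranked higher than the rest. The median mean percentile was 72.4 at the 110 CpG-rich sites and 59.6 at the other 540. The 3 sites of highest GC content were in last coding exons, at 83.5% in Nrg2, a growth factor of the neuregulin family, at 81.0% in Cacna1a and at 80.5% in Ano8, a membrane protein of the anoctamin family. The 3 lowest were Chordc1 at 32.5%, Mboat2 at 37.5% and Lpin2, a phosphatidate phosphatase gene, at 40.5%, a value that Aplf and Slc35a3 shared. Chordc1, Mboat2 and Lpin2 are internal-exon sites.

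Most sites were in internal coding exons. These held 472 of the 650, or 72.6%, where they hold 77.1% of eligible coding bases. Last coding exons held 136 sites, or 20.9% (interval 18 to 24.2%), against 16.8% of eligible bases. Sites were classed by the longest coding transcript that holds the summit, and bases by the longest of each gene. The shares of sites and of bases are therefore not classed alike. First coding exons held 25 sites and single coding exons 17. The share of CpG-rich sites was 28.7% in last exons and 13.1% in internal ones, and median GC content was 60.5 and 58.0%.

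The exons that held a site were 180 bp long at the median, and all eligible exons 126 bp. The longest was 9837 bp. The merged regions were far wider than the exons, with a median of 2590 bp and a highest value of 27650 bp at Nbeal2, a platelet granule gene. Distance from the nearest protein-coding start had a median of 9622 bp.

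A site far from protein-coding starts could still be near other annotated starts. Of the 650 sites, 139 (21.4%) had the start of some other annotated transcript within 2000 bp, against 11.5% of intron regions. In 116 of them this transcript belonged to the same gene. Most were fragments without a full reading frame, 59 retained introns and 55 processed transcripts, while 8 were antisense transcripts and 6 were lincRNAs. The Carns1 summit lay 29 bp from a lincRNA start, the Atn1 summit 20 bp and the Cacna1a summit 554 bp from a processed transcript of the same gene. In addition, 37 of the merged regions reached as far as a protein-coding start.

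The sites fell in 599 genes, 3.35% of the 17878 protein-coding genes with eligible coding sequence. These genes had more such sequence, 1.96 kb at the median against 1.06 kb for all eligible genes. By symbol, 554 genes had 1 site, 36 had 2 and 8 had 3. The 8 were Pdzd2, Notch3, Ano7, Mll2, Hspg2, Hmcn2, Tln1 and Triobp, which encode scaffold, receptor, matrix and chromatin proteins among others.

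A site is called higher in G1E-ER4 when both of its G1E-ER4 percentiles exceed both of its G1E percentiles, and lower in the reverse case. Each percentile is that of the list's strongest peak anywhere in the merged region, which need not cover the exon. By this rule 19% of all regions of all 4 lists were higher and 16.2% were lower. Sites of the same gene differed in level and in direction. In Pdzd2, a PDZ scaffold gene, coding exon 22 of 24 had percentiles of 89.8 and 94.3 in G1E-ER4, against 97.2 and 98.7 in G1E. Exon 19 of the same gene had 77.7 and 86.0 in G1E-ER4, against 88.1 and 90.1 in G1E, while exon 23 had 28.7 and 33.5 in G1E-ER4, against 30.4 and 55.6 in G1E. Exons 22 and 19 were lower in G1E-ER4, and the states overlapped at exon 23.

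In Notch3, a cell surface receptor, coding exon 24 of 33 had percentiles of 74.3 and 90.1 in G1E-ER4, against 91.1 and 90.5 in G1E. Its last exon had 25.3 and 85.7 in G1E-ER4, against 87.8 and 91 in G1E. Both sites were lower in G1E-ER4, by less in list 2 than in list 1, and exon 3 overlapped. The sites of Ano7, a membrane protein of the anoctamin family, went both ways: exon 4 of 23 was higher in G1E-ER4, with 69.4 and 69.8 against 15.2 and 42.3 in G1E, and exon 18 lower, with 75.4 and 66.4 against 83.7 and 82.1 in G1E. No peak of G1E list 1 covered the summit in exon 4, and none of G1E-ER4 list 1 covered that in exon 18.

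The sites touched few genes of the erythroid lists, in numbers too small to set against the 3.35% of genes at large. Of 24 eligible genes for erythroid transcription factors, 1 held a site, Tal1, a basic helix-loop-helix master regulator of blood formation. Haem and iron genes had 1 of 21, Slc11a2, the iron importer. Red cell membrane genes had 1 of 20, Spnb1, erythroid beta spectrin, with 2 sites. Progenitor factors had 0 of 16, and RNA polymerase and ribosome genes 0 of 19.

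Cytokine receptor and signalling genes had 2 of 21, the exchange factor Sos1 and the phosphatase Ptpn6. Megakaryocyte genes had 1 of 12, Nbeal2, and cell cycle genes 1 of 25, Aurka, a mitotic kinase. These counts are as small. The Nbeal2 region, of 27650 bp, also holds a protein-coding start. A peak of every list covered its summit, but the summits of the other lists were outside the exon, at a median of 10021 bp.

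Chromatin regulators held the most, 7 of 38 genes (18.4%) with 10 sites, among them Ep300, Dnmt1, Mll1, Mll2, Mbd3 and Setd2, which encode writers and remodelling partners of histone and DNA marks. These are long genes, with a median of 4.0 kb of eligible coding sequence. Per megabase of such sequence the list had 63.1 sites, cytokine receptor and signalling genes 51.2, red cell membrane genes 50.2, megakaryocyte genes 39.9, haem and iron genes 36.6, erythroid factors 29.6 and cell cycle genes 25.2, and all eligible genes had 24.7. All but the first rest on 1 or 2 sites a list.

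At Tal1 the site in the last coding exon was weak, with percentiles of 13.4 and 34.4 in G1E-ER4, against 16.8 and 23.1 in G1E, which overlapped. A peak over the Tal1 summit was present in G1E-ER4 list 2 alone (34.4), and the other percentiles are of peaks elsewhere in the region. The Slc11a2 site in coding exon 6 of 16 was higher in G1E-ER4, with 90.4 and 84.7 against 57.8 and 78.4 in G1E. At Spnb1 the site in coding exon 25 of 35 was lower in G1E-ER4, with 21.1 and 29.9 against 56.7 and 52.6 in G1E. Over its summit only G1E-ER4 list 2 (29.9) and G1E list 1 (56.7) had a peak.

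Exon 22 of Spnb1 overlapped between the states, with 59.7 and 65.4 in G1E-ER4, against 64.5 and 58.5 in G1E. Aurka was higher in G1E-ER4, with 65.2 and 62.7 against 34.0 and 52.2 in G1E, and neither G1E list had a peak over its summit. Among chromatin regulators, 1 site was higher in G1E-ER4, in the last exon of the histone methyltransferase gene Setd2, with 86.2 and 69.8 against 52.1 and 58.5 in G1E. Of the 2 that were lower in G1E-ER4, exon 21 of 39 of Dnmt1, the maintenance DNA methyltransferase, had 36.1 and 11.4, against 42.4 and 36.7 in G1E. The other 7 sites of the list overlapped.

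The sites ranked low among shared regions. Their mean percentile over the 4 lists had a median of 61.1, against 80.2 for all regions of all 4 lists, 71 for intron regions and 92.7 for promoters. By list the sites' median was 63.2 and 70.0 in G1E-ER4, against 65.2 and 59.2 in G1E. Only 52 sites averaged at or above the 90th percentile, and 223 averaged below the 50th.

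The 10 sites of highest mean percentile were in Carns1, Spnb4, Ano8, Cacna1a, Notch4, Gipc1, Inpp5b, Kcnn4, Atn1 and Map3k6. Carns1 had 98.3 and 99.7 in G1E-ER4, against 99.7 and 99.5 in G1E. Spnb4, a spectrin of nerve cell membranes, had 99.8 and 99.9 in G1E-ER4, against 98.2 and 97.3 in G1E. These sites were near the top of every list.

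Kcnn4, at coding exon 3 of 8, had 97.8 and 98.3 in G1E-ER4, against 94.7 and 95.7 in G1E. Its summits in the other 3 lists fell outside the exon, at a median of 33 bp from the first, since the best summit was 2 bp inside the exon edge. Map3k6, a stress kinase gene, had 99.1 and 93.2 in G1E-ER4, against 95.7 and 97 in G1E, and its states overlapped.

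Whether the open site is the exon itself was described with the lists that did not place the summit. For each site, the strongest peak of each of the other 3 lists was asked for its own summit. It was in the same exon in 45.8% of 1950 cases. All 3 fell in the exon at 169 sites, and none did at 215. The median distance from the best summit was 131 bp, against 33 bp for intron regions and 25 bp for promoters.

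Rank and exon length went with this agreement. Sites averaging at or above the 90th percentile had 71.2% of other summits in the exon, and those below the 50th had 24.4%. Exons over 1000 bp had 72.9% and exons of up to 150 bp had 38.8%. Length bears on this share by itself, since a longer exon leaves more room for a shifted summit. The 169 sites with every summit in the exon had a median mean percentile of 78.0, and the 215 with none had 47.8.

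At many sites a list had its peak elsewhere in the merged region. A peak that covered the best summit was present in all 4 lists at 354 of the 650 sites (54.5%), against 78.9% of intron regions and 84.8% of all regions of all 4 lists. By list, such a peak was present at 457 and 605 sites in G1E-ER4 and at 568 and 521 in G1E. It was present in both G1E-ER4 lists and neither G1E list at 15 sites, and in both G1E lists and neither G1E-ER4 list at 5. The same counts were 321 and 173 of all 29568 regions, and 157 and 85 of the 8744 intron regions.

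**Figure D2:**
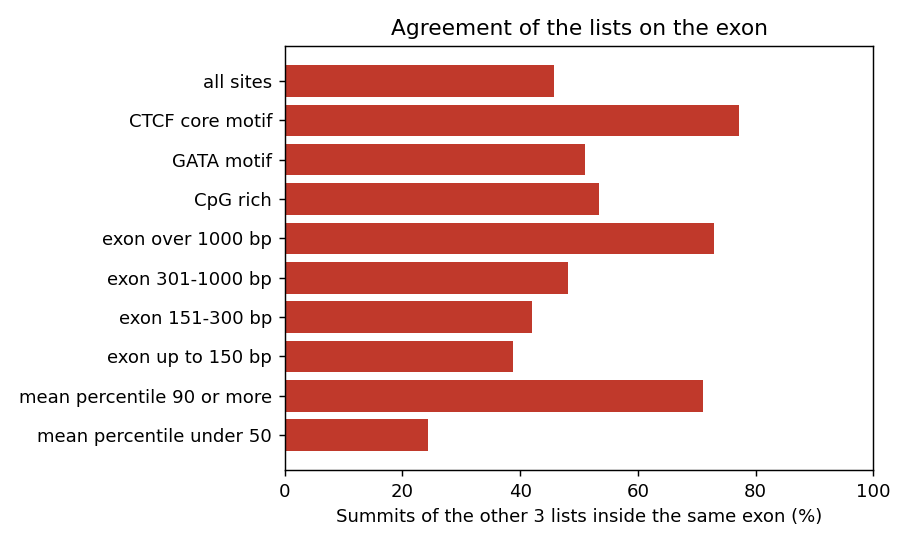
Percentage of summits of the other 3 lists that fell in the same exon as the best summit (x axis, %) for all 650 sites and for groups of sites (y axis). The bar for sites with the CTCF core reaches 77.3%, that for exons over 1000 bp 72.9%, and that for all sites 45.8%. A longer exon leaves more room for a shifted summit.

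The sites that held the CTCF core were sharply placed. The core, a consensus known from CTCF binding sites and searched on both strands, was within 100 bp of the summit at 44 sites, or 6.77% (interval 5.08 to 8.97%). It was in 0.153% of windows at all eligible coding exons, 11.7% of intron regions, 9.47% of all regions of all 4 lists and 2.13% of promoters. A match is a description of the letters and shows no binding.

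At these 44 sites 77.3% of other summits were in the same exon, and 25 sites had all 3 there. The centre of the match was a median of 15 bp from the summit, and within 25 bp at 35 sites. They were in 44 genes, 35 in internal and 9 in last exons, and their median mean percentile was 74.9. By direction, 12 were higher in G1E-ER4 and 5 were lower, beside 638 and 329 of the 2799 regions of all 4 lists with the core.

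Atn1 had 95.5 and 98.0 in G1E-ER4, against 97.5 and 94.8 in G1E. Hip1r had 99.1 and 90.8 in G1E-ER4, against 90.7 and 90.9 in G1E, with all other summits in its exon. Dnahc1, a dynein heavy chain gene, had 97.7 and 90.9 in G1E-ER4, against 90.7 and 97.7 in G1E. The states overlapped at all 3, which were the highest-ranking sites with the core.

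GATA matches were about as frequent as in exons at large. The letters AGATAA or TGATAA, on either strand, were near 96 sites, or 14.8% (interval 12.2 to 17.7%), beside 15.5% of eligible coding exons, 29.8% of intron regions, 19.1% of all regions of all 4 lists and 6.79% of promoters. The share at the sites was 20.2% in the stronger 50% of every list, 18% in regions of at most 2000 bp and 16.4% when every annotated transcript start was avoided, and 10.9% without G1E-ER4 list 1. The exon share was not taken anew under these settings, so no order of sites and exons is read from them. The 3 highest-ranking sites with a match were Kcnn4, Map3k6 and Rab6b, a small GTPase gene. Rab6b had 95 and 95.4 in G1E-ER4, against 94.8 and 96.6 in G1E, which overlapped.

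The share of sites with a GATA match was 13.0% among those higher in G1E-ER4 (22 of 169, interval 8.76 to 18.9%) and 21.7% among those lower (18 of 83, interval 14.2 to 31.7%). Intron regions had 29.3% among higher and 36.6% among lower, and all regions of all 4 lists 21 and 25.7%. Among sites under 55% GC, 38 of 155 had a match. Among sites of at least 60% GC, 14 of 274 had a match, and 0 of the 14 were lower, beside 49 of 333 regions of all 4 lists with a match at this GC content. So few sites set no limit on that share.

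Of the other motifs, CCNCNCCC, the letters of KLF and SP factors, were at 29.1% of sites, 13.5% of eligible exons and 30.7% of intron regions. CCGGAA, of ETS factors, was at 8.0, 4.85 and 3.53% of the same classes. TGNGGT, of RUNX factors, was at 44.6, 37.3 and 43.0%.

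The E-box CANNTG was at 65.4, 69.0 and 70.4% of the same classes, and TGANTCA, of AP-1, at 4.15, 4.73 and 8.65%. KLF and SP, ETS and RUNX letters were thus more frequent at the sites than in exons at large. The sites also had more GC than these exons, with medians of 58.5 and 49.5%. The part of GC content in the motif shares, GATA included, was not tested. Letters of different motifs can overlap.

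**Figure D3:**
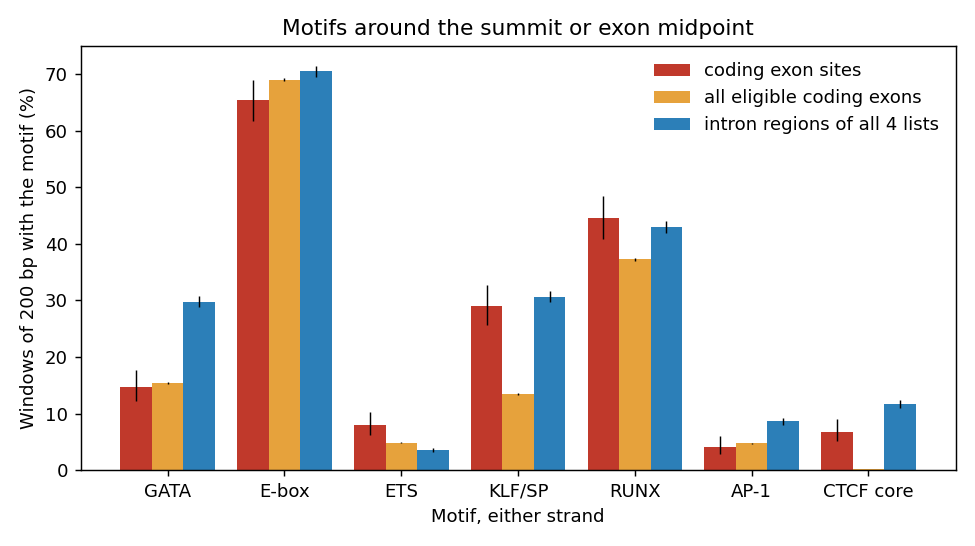
Percentage of 200 bp windows with each motif on either strand (y axis, %) for coding exon sites, all eligible coding exons and intron regions of all 4 lists, with 95% Wilson intervals as error bars that cover counting only. The CTCF core is at 6.77% of sites and 0.153% of exons, and GATA at 14.8 and 15.5%.

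Between the states, 169 sites (26.0%) had a higher percentile in both G1E-ER4 lists than in either G1E list, where 19% of all regions of all 4 lists did. Another 83 (12.8%) were lower in both, where 16.2% of all regions were. Intron regions had 22.3% higher and 18.3% lower. The remaining 398 sites overlapped. The rule took the summit from the list of highest percentile, which was G1E-ER4 list 1 at 162 sites, G1E-ER4 list 2 at 256, G1E list 1 at 134 and G1E list 2 at 98, so the rule bears on these counts and nothing is read from them against the regions at large.

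The median difference of the state means was 2.94 percentile points at the sites, -0.34 over all regions and 0.59 at intron regions. Regardless of sign, the state means of a site differed by a median of 8.79 points, beside a median gap of 12 points between the G1E-ER4 lists and of 8.37 points between the G1E lists. With only the peaks that cover the best summit, over the 354 sites with such a peak in all lists, the median difference was 0.48 points, 90 sites (25.4%) were higher and 58 (16.4%) lower, where 17.1 and 16.5% of all regions with such peaks were. Without G1E-ER4 list 1, which stood apart, the rule gave 1243 sites with a median difference of 7.85 points, 660 higher and 288 lower. A call then rests on fewer percentiles, and the share over all regions was not taken. Nothing is read from these counts. No test is possible with 1 sample a state.

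A split by shared summits is given as a description only. The list of highest percentile placed the summit, so the rule bears on both the agreement and the direction, and nothing is read from the split. At the 215 sites with no other summit in the exon the median difference was 7.11 points, with 65 higher (30.2%) and 23 lower (10.7%). At the 169 with all summits there it was 0.81 points, with 36 higher (21.3%) and 25 lower (14.8%). Over all regions of all 4 lists 19% were higher and 16.2% lower, but these were not split in this way and do not compare. Sites of at least 60% GC had 78 higher (28.5%) and 28 lower (10.2%) of 274, where 14.4 and 14.2% of all regions and 24.5 and 18% of intron regions of this GC content were. Their median percentile was 59.2 and 73.3 in G1E-ER4 lists 1 and 2 and 64.5 and 53.7 in G1E lists 1 and 2. The part of GC content in the result was not tested.

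A few chromosomes differed as a whole. On chromosome 7, 39.0% of all regions were higher in G1E-ER4, and 28 of 57 sites were, with 3 lower. On chromosome 3, 30.3% of all regions and 8 of 24 sites were higher. On chromosome 12, 44.3% of all regions were lower, and 9 of 19 sites were, with 4 higher. With chromosomes 3, 7, 9 and 12 left out, 121 of 508 sites (23.8%) were higher and 63 (12.4%) lower, beside 16.9 and 16% of all regions there. Whether copy number differs between the lines was not tested.

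**Figure D4:**
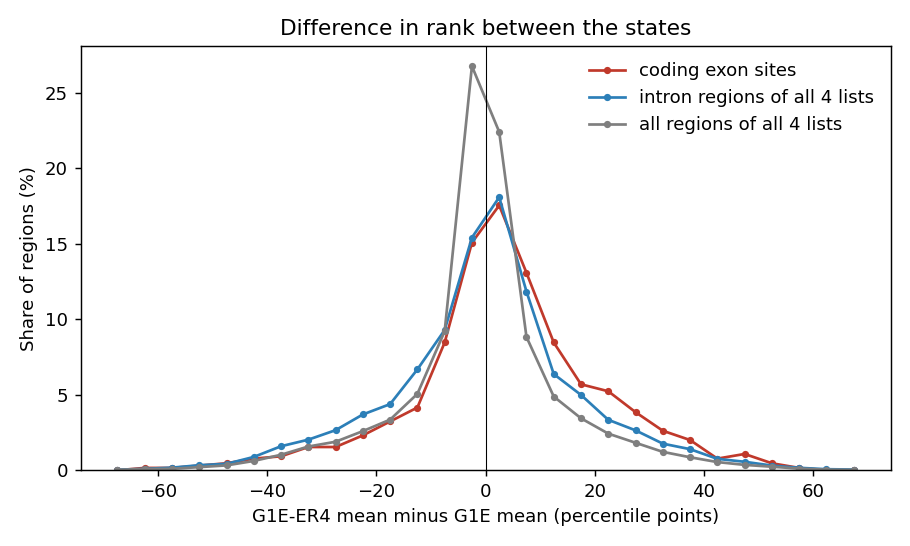
Share of regions (y axis, %) by the difference of state means, G1E-ER4 minus G1E (x axis, percentile points, bins of 5), for coding exon sites, intron regions and all regions of all 4 lists. The sites and the intron regions both form broader curves than all regions, with medians of 2.94 points at the sites, 0.59 at intron regions and -0.34 over all regions.

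The 10 largest gains in G1E-ER4 were in Mtap4, Clstn3, Pcx, Kiss1, Sh2d3c, Asb1, Colec11, Trpm4, Loxl3 and Zfp592, with differences of 57.9 points at Mtap4 down to 46.9 at Zfp592. Mtap4 had percentiles of 55.9 and 73.6 in G1E-ER4, against 4.41 and 9.36 in G1E. Its region also holds a protein-coding start 2113 bp from the summit, and 2 lists had a peak over the summit itself. Pcx, which encodes pyruvate carboxylase, had 43.9 and 78.9 in G1E-ER4, against 14.4 and 5.87 in G1E, with a peak over the summit in G1E-ER4 list 2 alone.

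At Asb1, a gene of the SOCS-box family, all 4 summits were in coding exon 2 of 5. Its percentiles were 58.3 and 79.9 in G1E-ER4, against 28.1 and 11.9 in G1E, and its window held a GATA match. Trpm4, a calcium-activated cation channel, had 69.8 and 71.1 in G1E-ER4, against 5.46 and 40.2 in G1E, and over the summit only the G1E-ER4 lists had a peak. Kiss1, the kisspeptin gene, had 48.2 and 67.5 in G1E-ER4, against 6.45 and 7.63 in G1E.

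The other gains had wide gaps within G1E. Clstn3, a calsyntenin gene, had 84.4 and 88.0 in G1E-ER4, against 12.7 and 50.4 in G1E. Peaks over its summit had only 3.29 and 88.0 in G1E-ER4 and 50.4 in G1E list 2, which overlap. G1E list 1 had no peak there. Zfp592, a zinc finger gene, had 75 and 82.5 in G1E-ER4, against 6.45 and 57.1 in G1E. Colec11, which encodes a collectin of innate immunity, had 78.7 and 86.1 in G1E-ER4, against 57.6 and 10.2 in G1E.

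In Sh2d3c, an adaptor gene, and Loxl3, a lysyl oxidase gene, the differences were 49.3 and 47.2 points. Of the 10 gains, 3 had a peak over the summit in all lists, 1 had all other summits in its exon and 6 had none there.

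The 10 largest losses were in Mboat2, Aplf, Ccdc84, Dnajc16, Ppm1d, Hmcn2, Slc3a1, Gfpt1, Atp5a1 and Gss, with differences of -63.4 points at Mboat2 to -41.5 at Gss. Mboat2 had percentiles of 0.58 and 31.6 in G1E-ER4, against 83.2 and 75.8 in G1E. It lies on chromosome 12, and a peak covered its summit in every list, although the other summits were outside the exon, at a median of 83 bp from the first. Aplf had 59.9 and 2.59 in G1E-ER4, against 84.3 and 89.3 in G1E, with all summits in coding exon 4 of 11.

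Ppm1d, a phosphatase of the p53 response, had 24.7 and 48.0 in G1E-ER4, against 84.4 and 85.2 in G1E. Slc3a1, a subunit of the cystine transporter, had 25.3 and 46.5 in G1E-ER4, against 79.9 and 84.1 in G1E. Gfpt1, the rate-limiting enzyme of hexosamine synthesis, had 27.1 and 59.9 in G1E-ER4, against 86.0 and 90.6 in G1E. At all 3 the summits of every list were in the exon and the states were well apart.

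Gss, the glutathione synthetase gene, had 14.1 and 83.1 in G1E-ER4, against 91.1 and 89.3 in G1E, so most of its loss is in G1E-ER4 list 1, and without that list the difference was -7.06 points. Dnajc16, a chaperone gene, had 6.84 and 66.6 in G1E-ER4, against 85.3 and 88.5 in G1E. Hmcn2, a matrix protein gene, had 27.1 and 10.4 in G1E-ER4, against 62.2 and 68.2 in G1E. The G1E lists lay closer together than the G1E-ER4 lists at all 3.

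Ccdc84, which has a coiled-coil domain, had 44.3 and 6.64 in G1E-ER4, against 72.3 and 88.4 in G1E, and Atp5a1, a subunit of ATP synthase, had 30.8 and 35.0 in G1E-ER4, against 78.2 and 76.2 in G1E. Of the 10 losses, 8 had a peak over the summit in all lists and 6 had all other summits in the exon. GATA letters were in 7 of the 10 windows, and in 1 of the 10 windows of the gains, a count made after the values were seen. The losses also had lower GC content, with a median of 48.2% (37.5 to 57.0%), against 58.8% (52.5 to 70.5%) in the gains.

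**Figure D5:**
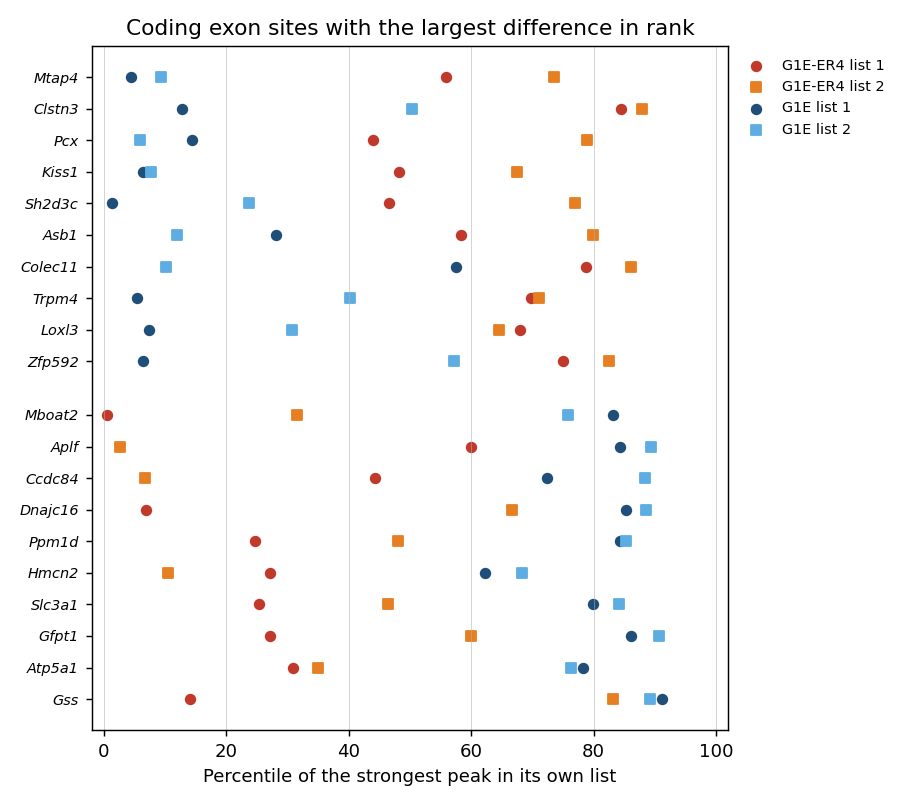
Percentile of the strongest peak in its own list (x axis) at the 10 coding exon sites with the largest gain and the 10 with the largest loss in G1E-ER4 (y axis, by gene), 1 point for each list. Gains such as Mtap4 show both G1E lists near the bottom, and losses such as Ppm1d show both G1E lists between 84 and 86.

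At the 2000 bp limit, the sites just inside were Nccrp1 at 2002 bp, Gnat2, the cone transducin gene, at 2020 bp, and 2810405K02Rik at 2031 bp, a distance that Chrnd shared, with mean percentiles of 61.6, 89.4 and 49.7. Just outside were Gp5, a platelet receptor subunit gene, at 1932 bp and C2cd4c at 1940 bp, with 81.4 and 51.8. Over the 7 sites between 2000 and 2100 bp the median was 61.6, and for the 2 outside it was 66.6.

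Tags were 20 bases long and could be kept when they matched several places, so copies of each 20-base word of the windows were counted in the genome. The median share of words with a copy elsewhere was 1.10% at the sites and 1.66% over all regions of all 4 lists. More than 50% of words had a copy at 10 sites (1.54%), against 2.51% of all regions. The histone gene Hist1h2be, with 90.1% of words copied, is such a site, and its placement is uncertain.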

How the data were processed

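DNase-seq peak lists were analysed, 2 for the G1E-ER4 sample and 2 for the G1E sample. Per the series design text, short tags were aligned to mm9 with Bowtie, tags with several matches were kept, F-seq made a smoothed density, and peaks were called per list. The value of each peak is the F-seq signal, which the authors deposited with no stated scaling between lists, and the summit is the offset in column 10. Read depth is unknown.

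Peaks were ranked within a list, merged when they shared at least 1 bp, and placed with the GENCODE vM1 annotation of mm9. A position in a gene refers to the transcript with the longest coding sequence that holds the summit. GC, CpG and motifs were read from 200 bp around summits, and around midpoints of eligible exons. Coordinates are 1-based. Python 3.11.15, numpy 2.4.6, pandas 2.3.3 and numba 0.67.0 were used, and the steps were tested on simulated data.

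No p-value was computed, since each state is 1 sample. The members, gene lists and rules were chosen with earlier results of these data known. Named genes are the 10 sites of highest mean percentile, the 10 largest gains and losses among sites whose states do not overlap, the 5 genes with most sites, up to 4 sites for each of 9 gene lists, the extremes of GC, the 3 highest-ranking sites with a GATA or CTCF match, and the 3 nearest the limit. Other sites named were chosen after their values were seen: Hmcn2, Tln1 and Triobp with 3 sites, the Dnmt1, Ep300 and Mbd3 sites, and Hist1h2be. Alternatives were other start distances, all transcript starts, the stronger 50% of lists, other windows, narrow regions, fewer chromosomes, signal on a log2 scale and leaving out each list. A gene that these rules name is not reported here.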

Additional observations from a re-analysis of the deposited data

How the results depend on the processing

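No paired analysis was possible because each state has 1 sample and the states share 1 replicate number. The median difference over the sites kept its sign under the alternatives run. Single sites were followed only by leaving out lists. Over the Clstn3 summit the peaks had 3.29 and 88.0 in G1E-ER4 and 50.4 in G1E list 2, which overlap. The GATA share of sites was 14.8% as reported, 15.5% without G1E-ER4 list 2 and 16.4% with every transcript start. It was also higher in the stronger 50% of lists and in narrow regions. The share of eligible exons, 15.5%, was taken only once. It lies within the interval of the reported share of sites, so no order is read. The 20 largest differences kept their sign when each list was left out, while 10 moved by over 1.5 times. Without G1E-ER4 list 1 these were Aplf (-84.2 points), Dnajc16 (-20.2), Gfpt1 (-28.4) and Gss (-7.06). Without G1E-ER4 list 2 they were Aplf (-26.9), Ccdc84 (-36.1), Dnajc16 (-80.1), Gss (-76.0) and Pcx (33.8). Without G1E list 1 they were Clstn3 (35.8), Trpm4 (30.3) and Zfp592 (21.6), and without G1E list 2 Colec11 (24.8) and Zfp592 (72.3). With starts of 1000 bp the sites were 2.46% of regions and in 3.78% of genes, with 5000 bp 1.71 and 2.61%, and with every annotated transcript start 1.73 and 2.65%. In the stronger 50% of lists there were 277 sites (1.34% of regions, 1.5% of genes), 82 higher and 32 lower in G1E-ER4, with a CpG ratio of 0.409, CTCF core at 11.6%, GATA at 20.2% and 64.6% of other summits in the exon. Where the summits of all lists fell in coding exons there were 182 sites (0.616% of regions, 0.990% of genes), 40 higher and 25 lower, with the CTCF core at 14.3%. Of their other summits 95.4% were in the same exon, a share that this choice of sites largely sets, so nothing is read from it. Regions of at most 2000 bp gave 228 sites (1.74% of regions, 1.24% of genes), 45 higher and 35 lower, GC 56.0%, CTCF core at 9.21%, GATA at 18% and 62.6% of other summits in the exon. Without chromosomes 3, 7, 9 and 12 the other autosomes had 504 sites (2.22% of regions), in 2.58% of genes. The gene shares of all settings were taken over the same 17878 genes of the reported setting. These include genes on the chromosomes left out, so 2.58% does not compare with the reported 3.35%. With other start limits the eligible genes were not counted anew either. Windows of 500 bp gave GC 56.6% and a CpG ratio of 0.325. With peaks covering the best summit, chosen after seeing the data, 354 sites remained, 90 of them higher and 58 lower.

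Leaving out 1 list at a time gave 665 to 1243 sites, 262 to 660 higher, 153 to 288 lower and a median difference of 1.46 to 7.85 points. The highest values of these 4 came without G1E-ER4 list 1, with 1243 sites, 660 higher and 288 lower, and the cause was not tested. With a list left out a call rests on fewer percentiles, and the share over all regions was not taken. The counts of higher and lower sites thus do not compare with those of all 4 lists. Under the same settings sites were 1.91 to 3.24% of regions and in 3.46 to 5.98% of genes, with GC 57.5 to 60%, a CpG ratio of 0.362 to 0.370, 72.2 to 74.0% in internal and 18.8 to 21.9% in last exons, GATA at 10.9 to 15.5%, the CTCF core at 4.51 to 6.77% and 41.1 to 49.4% of other summits in the exon. Causes of these shifts were otherwise not tested. Read depth is unknown and the lists have equal length, so a rank can move when other peaks do, and a gain or loss is one of rank and not of openness.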
